A study of Mus musculus with 12 samples.

Results

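The stromal vascular fraction of fat from high-fat-diet mice that carried a catalytically inactive Tert was compared with that of high-fat-diet mice that carried mCherry alone. The comparison takes in 6 of the 12 libraries of the series, 3 in each group, chosen by their labels and read across all genes. The HFD TertCi group (replicates 30, 31 and 33) has the genotype p21+/mcherry-TertCi, and the HFD mCherry group (replicates 15, 17 and 20) has the genotype p21+/mcherry. In both groups 1 allele of p21 (Cdkn1a) carries a cassette that the p21 promoter drives, and the other allele is unmodified. The cassette is therefore read in cells in which p21 is active. The other 6 libraries are p21+/mcherry mice on the standard diet (SD mCherry) and high-fat-diet mice with active Tert, p21+/mcherry-Tert (HFD Tert). For the control on high-fat diet, the design text gives p21 heterozygosity and leaves mCherry out, and the sample labels, which name mCherry, were followed. The labels do not state age, sex, fat depot, batch or whether animals were pooled. The labels call the cells primary stromal cells of adipose tissue. They do not say that replicates came from separate animals, so p-values measure the spread between these libraries, which may be technical.

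Tert is the reverse transcriptase subunit of telomerase, the enzyme that adds telomeric repeats to chromosome ends, and the inactive form keeps the protein without that activity. The protein p21 inhibits cyclin-dependent kinases, is induced by p53 after DNA damage or telomere shortening, and is widely used as a marker of senescent cells. The stromal vascular fraction is what is left of fat when mature adipocytes are removed: fibroblast-like progenitors, endothelial and mural cells, and leukocytes. In obesity it gains macrophages, among them lipid-associated macrophages rich in lysosomal enzymes, and its fibroblasts lay down collagen.

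The promoter that drives the cassettes is the sequence common to all libraries compared here. RefSeq (GRCm38.p6) gives Cdkn1a a pair of start sites on chromosome 17, and which of them serves the cassettes is not stated in the labels. The 250 bases before each start are shown on the plus strand, chr17:29090729-29090978 for the first and chr17:29093519-29093768 for the second. Capitals mark CATG followed by any 6 bases and CATG again, the core of paired p53 half-sites, in the first, and the GC box GGGCGG in the second, both searched on both strands.
Cdkn1a first start: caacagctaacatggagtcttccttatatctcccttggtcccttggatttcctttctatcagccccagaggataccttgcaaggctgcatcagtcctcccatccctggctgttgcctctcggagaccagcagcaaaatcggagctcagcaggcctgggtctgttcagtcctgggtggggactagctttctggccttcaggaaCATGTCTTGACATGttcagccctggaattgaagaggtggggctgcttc
Cdkn1a second start: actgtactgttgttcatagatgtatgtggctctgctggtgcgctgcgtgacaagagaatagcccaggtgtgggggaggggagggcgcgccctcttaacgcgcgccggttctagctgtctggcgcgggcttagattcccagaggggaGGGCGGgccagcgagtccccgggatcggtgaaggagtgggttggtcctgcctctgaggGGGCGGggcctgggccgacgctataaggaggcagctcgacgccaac
The p53 core is found in 161 of 32851 promoter windows of 250 bases (0.49%), and the GC box in 10756 of them (32.7%). These are matches of letters and no measurement of binding.

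The libraries of the series held 16430330 to 19486965 counts, and 16713 of 24422 features (68.4%) passed the filter on low counts. Levels are in CPM, counts scaled to a common library size after TMM correction for differences in RNA make-up. Stromal and immune markers of the labelled tissue were present in all 6 libraries, with 7829 to 25450 CPM summed over 16 progenitor markers. Transcripts of male reproductive tract and muscle were present too, unevenly. HFD mCherry replicate 15 held 16086 CPM of Gpx5, a secreted epididymal protein, against at most 0.752 CPM in the other 5 libraries. Crisp1, another epididymal secretory protein, was at 2396, 641 and 0.239 CPM in HFD mCherry and 9600.4, 0 and 7813 CPM in HFD TertCi. Summed over the 10 tested of 14 epididymis genes, the level was 31050, 2001 and 45.99 CPM in HFD mCherry and 33360, 179.6 and 27100 CPM in HFD TertCi. Gpx5 was at 0 in HFD mCherry replicate 20 and HFD TertCi replicate 31. Those are the libraries, 1 in each group, with under 1 CPM of both Crisp1 and the aldo-keto reductase Akr1b7, although HFD TertCi replicate 31 held 149 CPM of the epididymal gene Adam7. HFD mCherry replicate 15 also stood below replicates 17 and 20 in macrophage and matrix genes. The medians of macrophage, lysosomal, collagen and endothelial genes are therefore also given without it, a choice made after seeing the values. Leaving out the lowest control library widens a lower difference by the choice itself. Those medians and calls are thus no added support. With any of the other 5 libraries of the comparison left out, edgeR called 0 genes.

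Tert was measured first as a check of the labels. It was counted 30, 17 and 27 times in HFD mCherry and 187, 229 and 304 times in HFD TertCi. These counts correspond to 1.66, 1.02 and 1.61 CPM in HFD mCherry and 9.54, 14.7 and 15.2 CPM in HFD TertCi, and the groups did not overlap. The means were 1.43 ± 0.354 CPM and 13.2 ± 3.16 CPM (SD, n = 3 each), a difference of 3.12 in mean log2(CPM + 0.1) (2-sided exact permutation p = 0.1, the smallest that 3 against 3 libraries allow). The added feature mCherry_Tert had 0 counts in each HFD mCherry library, which allows up to 0.180 CPM, and 41, 86 and 57 counts in HFD TertCi. Its mean of 3.495 ± 1.81 CPM (SD, n = 3) was at least 19.4-fold higher than that limit of 3 counts a library. Counts of Tert do not tell the inactive protein from the active one, and the sequence behind mCherry_Tert is not given in the sources used here. Cdkn1a was at 226, 425 and 367 CPM in HFD mCherry and 222, 478 and 265 CPM in HFD TertCi, with overlapping groups that differed by less than their own spread (exact permutation test, 2-sided p = 0.9). Mean Cdkn1a was 339 ± 102 CPM and 322 ± 137 CPM (SD, n = 3 each).

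Across all genes, Pdgfra and 4930404N11Rik were called lower in HFD TertCi, and no gene was called higher (2 of 16713 genes, 0.0120%). Calls are by edgeR's quasi-likelihood test at a Benjamini-Hochberg adjusted p under 0.05. That test did not call Tert or mCherry_Tert (edgeR adjusted p = 0.154 and 0.138), which the genotype raises, so a gene not called may still differ. At an unadjusted p under 0.05 there were 2452 genes (14.7%), of which 1490 (8.92% of all) were lower and 962 (5.76%) higher in HFD TertCi. For 3591 genes (21.5%) no value of one group lay within the range of the other, 2012 (12%) being lower and 1579 (9.45%) higher. The median log2 fold change over all genes was -0.04, and 52.6% of genes were lower. With total counts in place of TMM scaling the median became 0.06, and the genes at an unadjusted p under 0.05 became 1122 lower and 1419 higher. In a fit to the 6 libraries alone the median was 0.05, with 1252 lower and 1372 higher. The balance of small differences thus depends on the scaling and on the libraries fitted. DESeq2 called 684 of 15890 genes (4.30%), 467 lower (2.94%) and 217 higher (1.37%). Without HFD mCherry replicate 15 edgeR called 198 genes, 184 lower and 14 higher, of which 160 are also among the DESeq2 calls (80.8% of the 198 and 23.4% of the 684). Both called genes are among the calls in each of those fits.

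**Figure D1:**
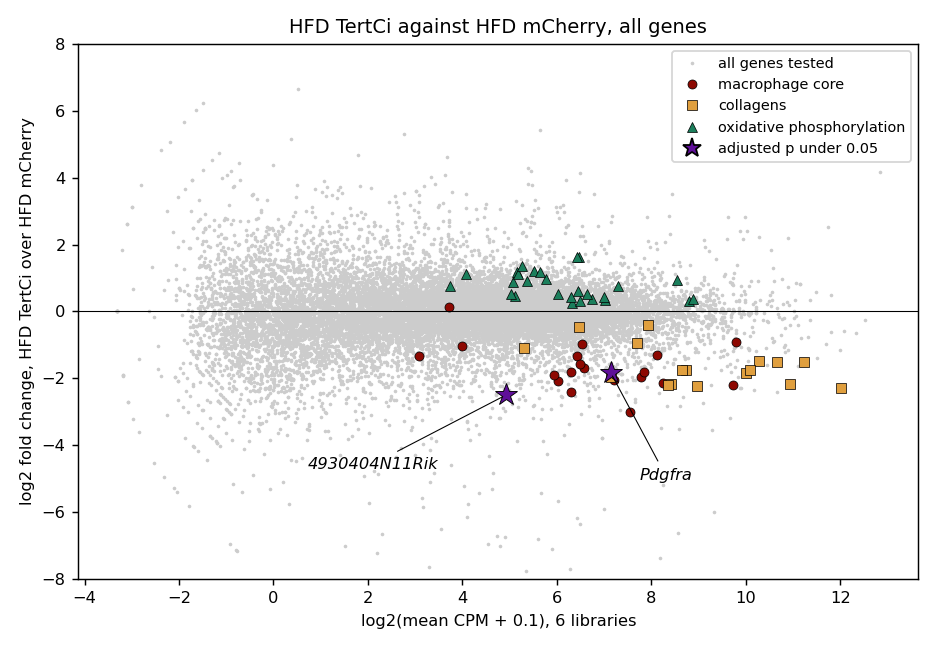
Log2 fold change of HFD TertCi over HFD mCherry against mean level (log2 of CPM + 0.1 over the 6 libraries) for the 16713 genes tested, of which 13 lie beyond the vertical axis. Stars mark Pdgfra and 4930404N11Rik, and nearly all macrophage core genes (18 of 19) and all 17 collagens lie below 0, while all 27 oxidative phosphorylation genes lie above.

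Pdgfra encodes the alpha receptor for platelet-derived growth factor and marks the fibroblast-like progenitors of adipose tissue. It was at 198, 232 and 232 CPM in HFD mCherry and 64.3, 56.7 and 63.9 CPM in HFD TertCi. Every HFD TertCi library was below every HFD mCherry library, and the spread within each group was small, with means of 220.5 ± 19.6 CPM and 61.6 ± 4.24 CPM (SD, n = 3 each). The log2 fold change was -1.84 ± 0.2198 (SE), with an edgeR adjusted p of 0.0426. In bulk tissue, fewer cells of a type and less RNA per cell cannot be told apart. The gene lies at chr5:75152292-75198215 on the plus strand of GRCm38, and holds the microRNA gene Mir7025, which was at 2.596, 5.05 and 5.38 CPM in HFD mCherry and 2.09, 0.258 and 1.604 CPM in HFD TertCi. Because Pdgfra is the named receptor among the called genes, the 250 bases before its RefSeq start (GRCm38.p6, chr5:75152001-75152250, plus strand) are shown, in which neither of the motifs above was found.
Pdgfra start: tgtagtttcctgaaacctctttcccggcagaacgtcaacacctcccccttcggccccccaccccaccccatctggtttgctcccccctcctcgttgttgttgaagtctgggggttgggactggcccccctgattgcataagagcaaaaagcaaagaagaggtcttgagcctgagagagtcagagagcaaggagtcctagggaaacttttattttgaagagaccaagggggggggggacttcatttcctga

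4930404N11Rik, a protein-coding gene whose role is not described in the files, was at 36.2, 58.3 and 59.7 CPM in HFD mCherry and 6.68, 11.8 and 8.67 CPM in HFD TertCi. The groups did not overlap, with means of 51.4 ± 13.2 CPM and 9.07 ± 2.605 CPM (SD, n = 3 each). Its log2 fold change was -2.502 ± 0.288 (SE), with an edgeR adjusted p of 0.0426. It lies at chr10:81363067-81365816 on the minus strand of GRCm38, inside Mfsd12 (chr10:81357491-81366225, plus strand). Mfsd12, a lysosomal cysteine transporter, was at 15.5, 28.9 and 33.7 CPM in HFD mCherry and 4.79, 3.99 and 4.31 CPM in HFD TertCi, a log2 fold change of -2.57 ± 0.398 (SE) that was not called (edgeR adjusted p = 0.138). Whether the counting used strand is not stated, so reads of these overlapping genes cannot be told apart. Fzr1, which also overlaps Mfsd12, was at 34.5, 37.4 and 37.2 CPM in HFD mCherry and 39.02, 44.6 and 38.2 CPM in HFD TertCi, with a log2 fold change of 0.16.

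Both calls depended on 5 of the 6 libraries. Each was lost when HFD mCherry replicate 17 or 20, or any of the HFD TertCi libraries 30, 31 and 33, was left out, with edgeR adjusted p from 0.285 to 0.373 for Pdgfra and from 0.105 to 0.373 for 4930404N11Rik. Their log2 fold changes over the same 5 fits ran from -1.87 to -1.78 for Pdgfra and from -2.74 to -2.32 for 4930404N11Rik. Without HFD mCherry replicate 15 they stayed called, at -1.91 and -2.70. A fit to the 6 libraries alone called neither (adjusted p = 0.18 for both).

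**Figure D2:**
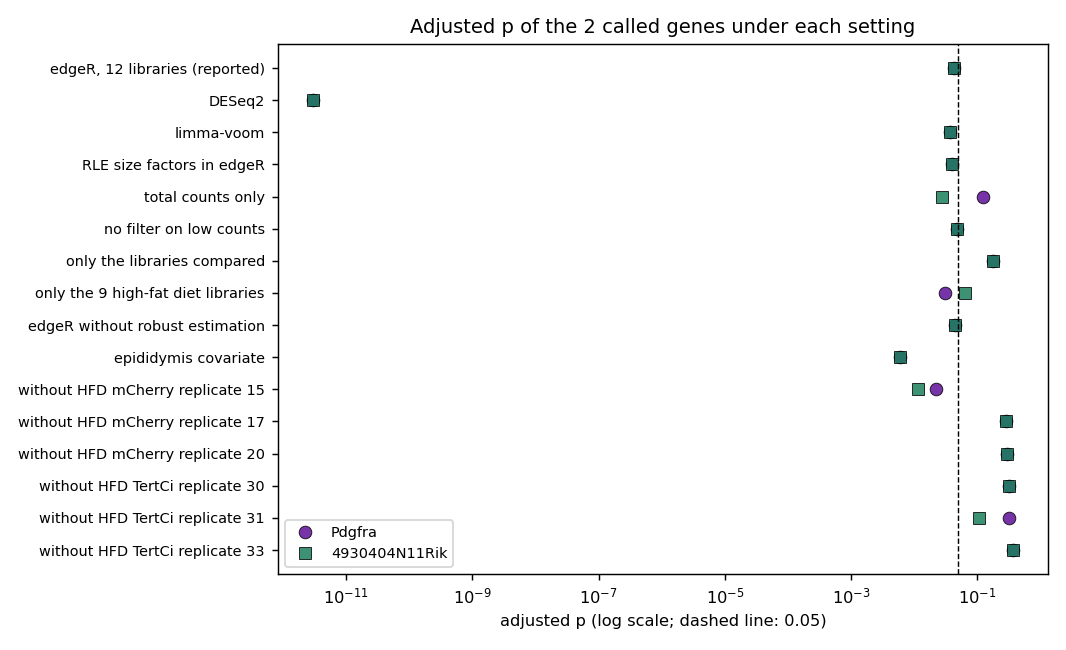
Adjusted p (log scale) of Pdgfra and 4930404N11Rik in the reported edgeR fit and under 15 alternatives, with a dashed line at 0.05. Both lie left of the line in 7 of the 15 alternatives, among them DESeq2 at 2.94e-12, and both lie right of it in the 6-library fit and when any library other than HFD mCherry replicate 15 is left out.

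**Figure D3:**
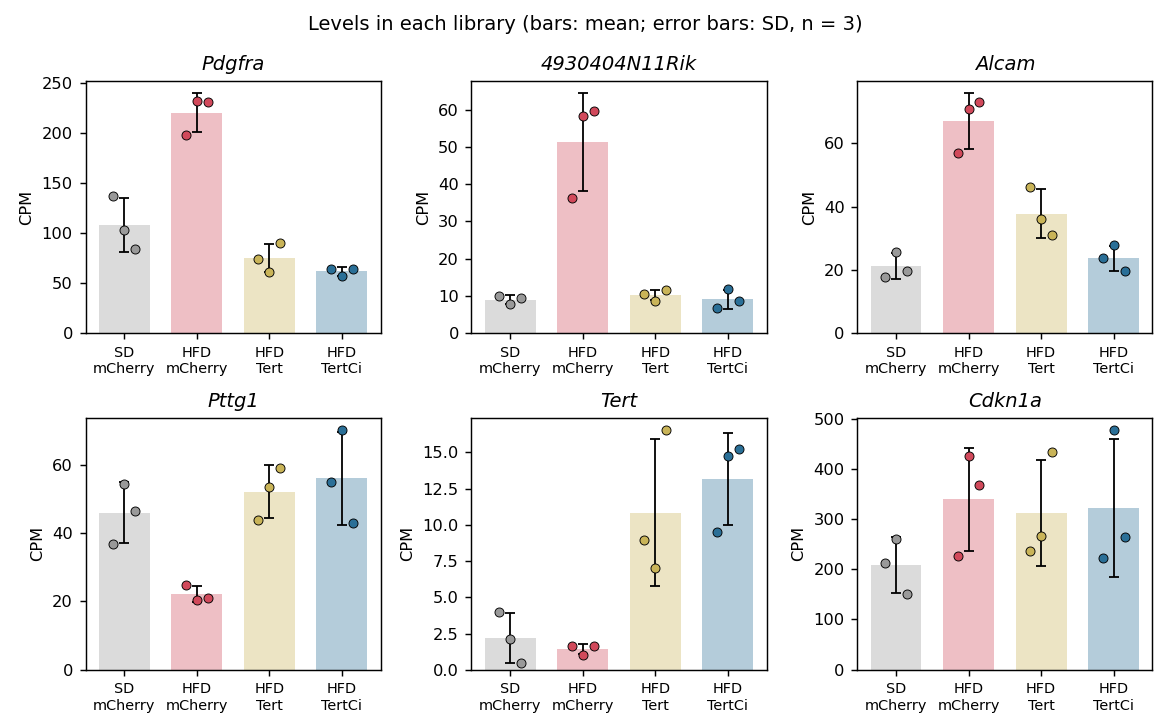
CPM of 6 genes in each of the 12 libraries, as bars (group mean), error bars (SD, n = 3) and points (libraries). The HFD mCherry points of Pdgfra, 4930404N11Rik and Alcam lie above, and those of Pttg1 and Tert below, all HFD TertCi points, while the points of Cdkn1a overlap.

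The genes next in order of p were not called, and their values are given as such. Among those with at least 5 CPM on average and no overlap, the lower ones included surface and secreted proteins. Alcam, an adhesion molecule of the immunoglobulin family, was at 56.9, 71.1 and 73.3 CPM in HFD mCherry and 23.6, 27.7 and 19.7 CPM in HFD TertCi (log2 fold change -1.501 ± 0.228 (SE), edgeR adjusted p = 0.138). Gpc1, a heparan sulfate proteoglycan that binds growth factors, was at 68.99, 58.8 and 52.6 CPM and 21.7, 20.9 and 17.4 CPM in the same order. Slc7a8, a transporter of neutral amino acids, was at 88.5, 108 and 97.7 CPM and 29.02, 38.8 and 32.1 CPM. These 3 genes varied little within either group, as Pdgfra did, which choosing genes by small p and no overlap favours. Fcna, the ficolin A of macrophages, was at 36.4, 46.8 and 40.7 CPM in HFD mCherry and 9.08, 5.92 and 10.1 CPM in HFD TertCi (log2 fold change -2.303 ± 0.377 (SE)). Wfs1, a protein of the endoplasmic reticulum membrane, Naglu, a lysosomal hydrolase, and Lrrn2 had log2 fold changes of -1.39, -1.22 and -2.21. Runx2, a transcription factor of bone-forming cells, was at 61.1, 20.9 and 17.7 CPM in HFD mCherry, where replicate 15 was the highest, and 2.24, 2.25 and 2.36 CPM in HFD TertCi (log2 fold change -3.86 ± 0.706 (SE)). Supt3, which overlaps Runx2 on the opposite strand, was at 11.6, 2.71 and 2.33 CPM and 5.92, 2.90 and 5.46 CPM in the same order. Without strand, reads of Runx2 and Supt3 cannot be told apart. The antisense gene A930015D03Rik had a log2 fold change of -1.597 and overlaps H2-T24 (-1.83), H2-T23 (0.34) and H2-T22 (0.504), whose reads cannot be told from its own without strand. The edgeR adjusted p of these genes, apart from the overlapping Supt3, H2-T24, H2-T23 and H2-T22, ran from 0.138 to 0.154.

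The largest lower differences among genes that DESeq2 called were in genes of low or moderate level with wide spread in HFD mCherry. Ereg, a ligand of the EGF receptor, was at 28.1, 124 and 141 CPM in HFD mCherry and 4.13, 12.5 and 3.21 CPM in HFD TertCi (log2 fold change -3.89 ± 0.719 (SE), edgeR adjusted p = 0.154). Arl11, a small GTPase-like protein, was at 4.36, 11.97 and 17.4 CPM and 0.255, 0.322 and 1.05 CPM in the same order. Tlr13, a receptor for bacterial ribosomal RNA, was at 10.8, 44.98 and 57.7 CPM and 0.867, 6.95 and 1.15 CPM, and Tm4sf19, a tetraspanning membrane protein, was at 3.54, 23.7 and 28.4 CPM and 0.459, 2.77 and 0.802 CPM. In Tlr13 and Tm4sf19 the lowest HFD mCherry library, replicate 15, and the highest HFD TertCi library, replicate 31, were less than 2-fold apart. Mir7062 (4.58, 16.4 and 19.9 CPM and 0.663, 1.55 and 1.303 CPM) lies on the same strand inside Adam8, a metalloprotease of leukocytes, which was at 63.6, 235 and 232 CPM and 17.1, 45.8 and 21.5 CPM, so these reads cannot be credited to the microRNA.

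Among genes higher in HFD TertCi, none was called by edgeR. Pttg1, the securin that holds sister chromatids together until anaphase, was at 24.9, 20.5 and 20.96 CPM in HFD mCherry and 54.9, 70.3 and 42.96 CPM in HFD TertCi (log2 fold change 1.34 ± 0.231 (SE), edgeR adjusted p = 0.154). AU021092 was at 7.24, 6.97 and 9.08 CPM and 39.7, 45.1 and 47.1 CPM in the same order (log2 fold change 2.500 ± 0.432 (SE)). The fit to the 9 high-fat-diet libraries alone called AU021092 (adjusted p = 0.0155) and, as lower, Slc27a1, a fatty acid transport protein at 108, 88.99 and 110.1 CPM in HFD mCherry and 31.98, 27.4 and 30.98 CPM in HFD TertCi. Slc27a1 was named after its values were seen. The growth factors Fgf9 and Ptn (pleiotrophin) and the matrix protein Smoc1 had log2 fold changes of 1.73, 2.17 and 1.93. Cish, an inhibitor of JAK-STAT signalling, was at 49.2, 73.5 and 63.6 CPM in HFD mCherry and 120.2, 127 and 114 CPM in HFD TertCi. Epb4.1l4a, Cox6b2, Psmg1 and Spata13 had log2 fold changes of 1.36, 1.47, 1.74 and 0.96. Renin was at 0.552, 1.203 and 1.85 CPM and 4.64, 25.4 and 14.4 CPM, with identical values listed for Ren1 and Ren2, near-identical copies that the counting did not separate.

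A further 3 genes among the largest higher differences were highest in HFD TertCi replicates 30 and 33. Abcg2, an efflux transporter, was at 816, 77.97 and 1030.2 CPM in HFD TertCi and 53.9, 77.6 and 36.4 CPM in HFD mCherry. Cdkl1 was at 20.7, 2.897 and 26.7 CPM and 1.82, 1.203 and 0.657 CPM, and the water channel Aqp2 at 30.9, 8.499 and 35.7 CPM and 2.04, 2.16 and 2.09 CPM, in the same order. In all 3 the HFD TertCi replicates 30 and 33, which carried Crisp1 and Akr1b7, were well above replicate 31. HFD mCherry replicate 15, which held epididymal transcripts too, was below replicate 17 in Abcg2, nearly equal to it in Aqp2 and above it in Cdkl1. Akr1b7 itself was lower in replicate 15 (970 CPM) than in replicate 17 (1347 CPM). The part of epididymal transcripts in the difference was not tested.

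Macrophage genes were lower in HFD TertCi as a group. Of 19 macrophage core genes tested, 18 were lower, 16 of them with no overlap between groups (12% of all genes were so), and the median log2 fold change was -1.80 against -0.04 over all genes. None was called by edgeR, 17 had an unadjusted p under 0.05 (8.92% of all genes were so), and DESeq2 called 9 (2.94% of all genes were called lower). Cd68, a lysosomal glycoprotein of macrophages, was at 124, 433 and 441 CPM in HFD mCherry and 23.97, 65.9 and 33.5 CPM in HFD TertCi (log2 fold change -3.02 ± 0.765 (SE), edgeR adjusted p = 0.186). Csf1r, the receptor for the growth factor on which macrophages depend, was at 124, 307 and 283 CPM and 43.2, 69.8 and 60.7 CPM in the same order. Adgre1, which encodes F4/80, was at 53.7, 186 and 159.8 CPM and 16.5, 37.3 and 20.8 CPM. In each of these genes replicate 15 was the lowest HFD mCherry library and lay closest to the HFD TertCi libraries. The complement genes C1qb, C1qc and C1qa had log2 fold changes of -2.13, -1.81 and -1.31. Aif1, at 0.13, was the single member that was higher, and was lower without HFD TertCi replicate 31. Without HFD mCherry replicate 15 the list median was -2.10, and edgeR called 1 member, among 198 genes called in that fit.

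All 21 lipid-associated macrophage genes were lower, 14 with no overlap, with a median of -1.73 (15 at an unadjusted p under 0.05, 0 called by edgeR, 9 called by DESeq2). Over all genes 12% were lower with no overlap, 8.92% were lower at such a p, and DESeq2 called 2.94% lower. Trem2, the lipid-sensing receptor that defines these cells, was at 63.1, 253 and 226 CPM in HFD mCherry and 10.5, 53.5 and 11.8 CPM in HFD TertCi (log2 fold change -2.84 ± 0.965 (SE)). Lipa, the lysosomal acid lipase, was at 124, 465 and 462 CPM and 38.6, 76.9 and 43.5 CPM in the same order, and the protease Ctsk at 156, 658 and 645 CPM and 53.6, 137 and 77.3 CPM. In these genes replicate 31 was the highest of the HFD TertCi libraries, and for the integrin Itgax it was above the lowest HFD mCherry library (10.5, 47.97 and 11.7 CPM in HFD TertCi and 45.4, 301 and 326 CPM in HFD mCherry). Cd9 and Cd63, which many cell types express, had log2 fold changes of -0.07 and -0.26. The median without HFD mCherry replicate 15 was -2.09, and edgeR called 5 members, among 198 genes called in that fit.

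Of the 29 lysosomal genes 28 were lower, 10 with no overlap (12% of all genes were so), with a smaller median of -0.53. The median was -0.85 without HFD mCherry replicate 15, and edgeR then called 7 members, among 198 genes called in that fit. Ctsb, Ctsd and Ctsl are among those members and also belong to the lipid-associated macrophage list, so they are counted in both. The members with the smallest p were the cathepsin Ctsd (-1.59) and the glucuronidase Gusb (-1.98), while the lysosomal regulator Tfeb was at -0.04. Genes of resident perivascular macrophages varied more, with 12 of 16 lower, 7 with no overlap (12% of all genes were so), and a median of -0.82. Among them Folr2, a folate receptor, was at 57.00, 159 and 133 CPM in HFD mCherry and 11.9, 25.9 and 22.6 CPM in HFD TertCi, whereas the hyaluronan receptor Lyve1 had a log2 fold change of 0.54 and the scavenger receptor Stab1 of 0.06, both of which took the other sign without HFD TertCi replicate 31. Genes of MHC class II, which present antigen, had a median of -0.79, with 9 of 10 lower and 5 with no overlap (12% of all genes were so). Only 1 of them was lower at an unadjusted p under 0.05 (8.92% of all genes were so), and neither edgeR nor DESeq2 called any.

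**Figure D4:**
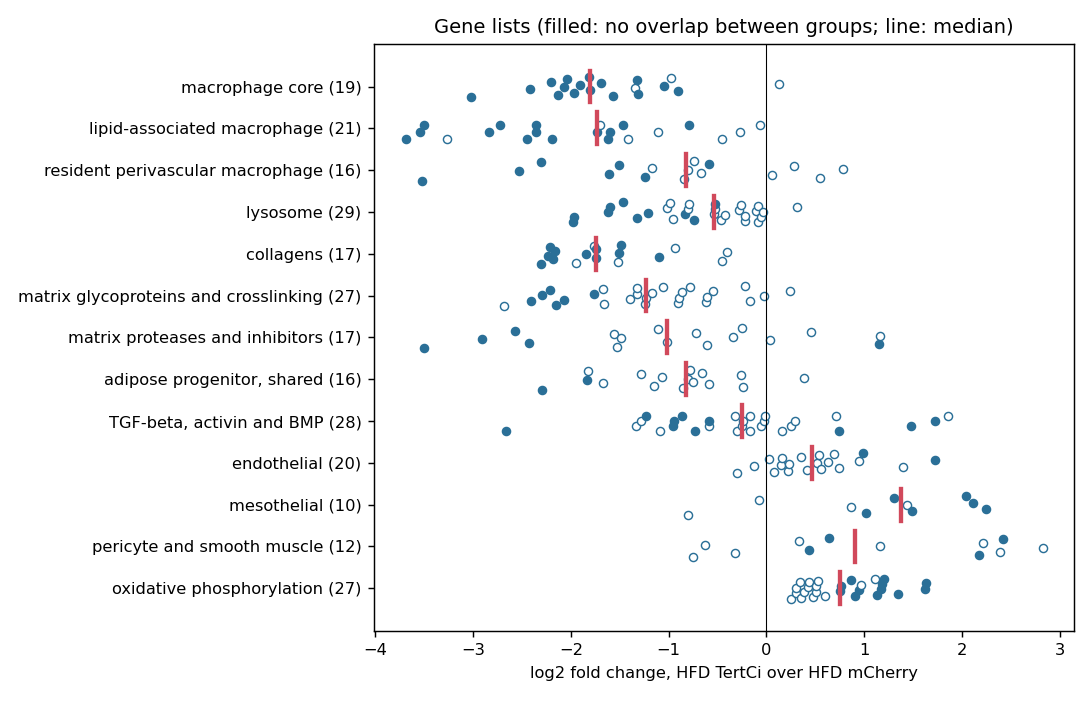
Log2 fold change of HFD TertCi over HFD mCherry for each tested gene of 13 lists (number tested in parentheses). Filled points mark genes whose groups did not overlap, and lines mark list medians, which lie at -1.80 for macrophage core genes, -1.75 for collagens and 0.75 for oxidative phosphorylation.

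Collagens and other matrix genes were also lower. All 17 collagens were lower in HFD TertCi, 11 with no overlap, with a median of -1.75 (14 at an unadjusted p under 0.05, 0 called by edgeR, 13 called by DESeq2). The shares over all genes were 12% lower with no overlap, 8.92% lower at such a p and 2.94% called lower by DESeq2. Col1a1, a chain of fibrillar type I collagen, was at 1348, 3601 and 4652 CPM in HFD mCherry and 509, 838 and 798 CPM in HFD TertCi (log2 fold change -2.16 ± 0.521 (SE), edgeR adjusted p = 0.183). Col6a1, of the microfibrillar type VI collagen of fat, was at 721, 1906 and 2205 CPM and 352, 495 and 499 CPM in the same order. Replicates 17 and 20 were more than 2 times replicate 15 in both genes, and replicate 15 was still above all HFD TertCi libraries. Col12a1 had the opposite order within HFD mCherry, with replicate 15 the highest, at 68.1, 44.8 and 48.7 CPM against 28.9, 21.9 and 24.8 CPM in HFD TertCi. The smallest differences were in Col18a1 (-0.41) and Col16a1 (-0.45). Without HFD mCherry replicate 15 the median was -2.14, and edgeR called 3 members, among 198 genes called in that fit.

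Among 27 matrix glycoproteins and crosslinking enzymes 26 were lower, 6 with no overlap (12% of all genes were so), with a median of -1.23. Fn1, fibronectin, was at 857, 3588 and 3692 CPM in HFD mCherry and 348, 647 and 543 CPM in HFD TertCi (log2 fold change -2.403 ± 0.658 (SE), edgeR adjusted p = 0.197), and the proteoglycan Vcan at 126, 416 and 432 CPM and 56.1, 91.7 and 84.5 CPM. Of 17 matrix proteases and their inhibitors 13 were lower and 4 higher. Mmp2, the gelatinase made by fibroblasts, was at 216, 891 and 975 CPM in HFD mCherry and 119, 103 and 129 CPM in HFD TertCi (log2 fold change -2.57 ± 0.471 (SE), edgeR adjusted p = 0.154). Its HFD TertCi libraries lay within a narrow range, whereas replicate 15 was far below replicates 17 and 20 in HFD mCherry. Without HFD mCherry replicate 15, edgeR called Mmp2 at an adjusted p of 0.00605, among 198 genes called in that fit.

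Other progenitor genes were lower too, with a smaller median. Of the 16 shared progenitor genes 15 were lower, with a median of -0.83 (6 at an unadjusted p under 0.05 against 8.92% of all genes). The edgeR test called 1 of them, which is Pdgfra itself, and no other member. DESeq2 called 2, Pdgfra and Lum (2.94% of all genes were called lower by DESeq2). Pdgfra and Lum were the 2 with no overlap, a share near the 12% of all genes that were lower with none. The median became -1.24 without HFD TertCi replicate 31. Lum, the matrix proteoglycan lumican, was at 596, 2065 and 2058 CPM in HFD mCherry and 177, 463 and 323 CPM in HFD TertCi. Cd34 and Ly6a, which mark progenitors and also endothelial cells, had log2 fold changes of -0.25 and -0.24. Pdgfrb, the beta receptor of mural cells and fibroblasts, was at 104, 219 and 271 CPM in HFD mCherry and 63.5, 164 and 103 CPM in HFD TertCi. Of the 12 genes of the Dpp4 subset, early progenitors of the interstitium, 9 were lower, with a median of -0.33 that ran from -0.68 to -0.22 when 1 library was left out. Cd248, a surface protein of fibroblasts, was at 75.01, 242 and 265 CPM in HFD mCherry and 29.99, 44.7 and 48.6 CPM in HFD TertCi (log2 fold change -2.24 ± 0.503 (SE), edgeR adjusted p = 0.165), whereas Dpp4 was at 0.18. Of 14 genes of the committed and F3 subsets 6 were lower and 8 higher, with a median from -0.12 to 0.12 when 1 library was left out. In the PDGF family, the ligands Pdgfa, Pdgfb, Pdgfc and Pdgfd had log2 fold changes of 0.21, 0.51, -0.25 and -0.24, each within about 1 standard error of 0. Without HFD TertCi replicate 31 all 7 members tested were lower.

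In the TGF-beta, activin and BMP list 20 of 28 genes were lower, with a median of -0.25 and 7 lower and 3 higher with no overlap (12% and 9.45% of all genes were so). The median without HFD mCherry replicate 17 was -0.0725, with 15 lower and 13 higher, and over the 6 libraries left out in turn it ran from -0.38 to -0.0725. Inhba, the chain of activin A, was at 19.1, 81.4 and 108 CPM in HFD mCherry and 6.68, 12.9 and 13.2 CPM in HFD TertCi, and Inhbb, that of activin B, at 229.5, 313 and 311 CPM and 101, 121 and 142 CPM. The receptors Tgfbr1 (-0.96) and Acvr2a (-0.59) were lower with no overlap, while the ligand Bmp4 was higher (16.6, 19.3 and 19.8 CPM and 29.2, 90.6 and 35.5 CPM). None was called by edgeR (adjusted p = 0.186 for Bmp4, the smallest p of the list). DESeq2 called 4 of the list lower (2.94% of all genes were so) and 1 higher (1.37%). Without HFD mCherry replicate 15, edgeR called Tgfbr1 (adjusted p = 0.046), among 198 genes called in that fit.

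Genes of oxidative phosphorylation, the mitochondrial respiratory chain, were higher in HFD TertCi. All 27 were higher, 12 with no overlap (9.45% of all genes were so), with a median of 0.75. At an unadjusted p under 0.05 there were 14 (5.76% of all genes were higher at such a p). The edgeR test called 0 and DESeq2 called 2 (1.37% of all genes were called higher by DESeq2). Cox5a, a subunit of cytochrome c oxidase, was at 20.7, 23.9 and 20.6 CPM in HFD mCherry and 74.2, 48.9 and 42.9 CPM in HFD TertCi (log2 fold change 1.35 ± 0.345 (SE), edgeR adjusted p = 0.186). Ndufa4 was at 54.8, 46.7 and 28.97 CPM and 203, 61.7 and 137 CPM in the same order. In Ndufa4, as in the list as a whole, HFD TertCi replicates 30 and 33 were the highest and replicate 31 lay near HFD mCherry. Replicates 30 and 33 also had the highest summed levels of smooth and skeletal muscle genes of the 6 libraries, and the highest Crisp1 and Akr1b7. The part of those cells in the difference was not tested. Without replicate 30 the median was 0.54 with 3 genes at an unadjusted p under 0.05, and without replicate 33 it was 0.80 with 9.

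Most markers of mural, mesothelial and endothelial cells were higher, and none was called by edgeR. DESeq2 called 2 pericyte and smooth muscle, 3 mesothelial and 1 endothelial gene, all as higher (1.37% of all genes were so). Of 12 pericyte and smooth muscle genes 9 were higher, 4 with no overlap (9.45% of all genes were so). The summed level of the 12 was 2641, 3544 and 1927 CPM in HFD mCherry and 15180, 4498 and 13200 CPM in HFD TertCi. Tagln, an actin-binding protein of smooth muscle, was at 649, 915 and 497 CPM in HFD mCherry and 3943, 2019 and 3386 CPM in HFD TertCi (log2 fold change 2.18 ± 0.705 (SE), edgeR adjusted p = 0.235). Myh11, smooth muscle myosin, was at 469, 655 and 194 CPM and 3029, 342 and 2744 CPM, so that replicate 31 lay within the HFD mCherry range, while the pericyte genes Rgs5 (-0.63) and Abcc9 (-0.32) were lower. Of 10 mesothelial genes 8 were higher, 6 with no overlap (9.45% of all genes were so), with a median of 1.38. The lower ones were Wt1 (-0.80), which kept its sign in all 15 alternatives, and Cldn15 (-0.08), which changed it in 6. Mesothelin (Msln), of the lining of serous surfaces, was at 24.1, 33.6 and 36.4 CPM in HFD mCherry and 77.3, 252 and 117 CPM in HFD TertCi (log2 fold change 2.25 ± 0.614 (SE), edgeR adjusted p = 0.197). Here replicate 31, not 30 or 33, was the highest. Of 20 endothelial genes 18 were higher, with a median of 0.46. Emcn and Egfl7 were the 2 with no overlap, a share near the 9.45% of all genes that were higher with none. The capillary glycoprotein Emcn was at 34.3, 67.3 and 52.1 CPM and 92.2, 302 and 116 CPM, and Pecam1 had a log2 fold change of 0.63. The endothelial median without HFD mCherry replicate 15 was 0.24, with 14 of 20 higher, and without HFD TertCi replicate 31 it was 0.176, with 15 of 20 higher. Without HFD TertCi replicate 30 it was 0.74.

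**Figure D5:**
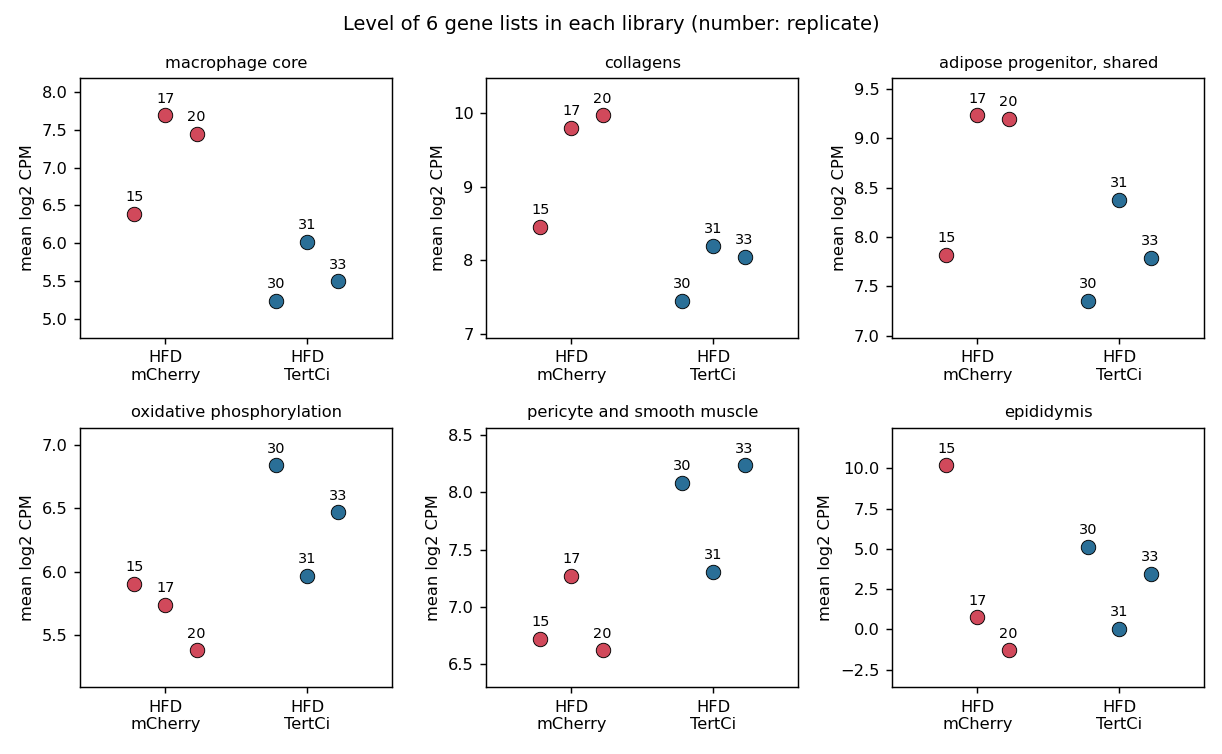
Mean log2 CPM of 6 gene lists in each of the 6 libraries, with replicate numbers. HFD mCherry replicate 15 lies below replicates 17 and 20 in macrophage, collagen and progenitor genes and above all libraries in epididymis genes, and HFD TertCi replicates 30 and 33 lie above all others in oxidative phosphorylation and smooth muscle genes.

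The library without most reproductive tract transcripts in each group gives a pair of values with no test. Between HFD TertCi replicate 31 and HFD mCherry replicate 20, the median log2 difference was -1.52 over macrophage core genes, -1.76 over lipid-associated macrophage genes and -1.89 over collagens, against -0.10 over all genes. Pdgfra differed by -2.03 and 4930404N11Rik by -2.32 in this pair. The oxidative phosphorylation median was 0.36 with 20 of 27 genes higher, and the mesothelial median was 1.74. This pairing was chosen after seeing the data.

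Among other leukocyte lists, of 9 mast cell and eosinophil genes 7 were lower, with a median of -2.07. The higher ones were the eosinophil genes Epx (6.03) and Prg2 (0.84), while Siglecf, also of eosinophils, was at -2.15. Epx was at 0 CPM in HFD mCherry replicate 20 and HFD TertCi replicate 31. The mast cell protease Tpsb2 was at 12.6, 82.8 and 62.8 CPM in HFD mCherry and 10.3, 7.404 and 10.6 CPM in HFD TertCi, a difference carried by replicates 17 and 20. Of 14 T and NK cell genes 7 were lower and 7 higher, with a median of 0.06, which ran from -0.42 to 0.30 when 1 library was left out. Cell cycle genes had a median of -0.09 (from -0.28 to 0.0618 when 1 library was left out) and the genes of cyclin-dependent kinase inhibitors and p53 targets one of -0.06 (from -0.15 to 0.0326), with 16 of 28 lower. In that list, Cdkn2a, which encodes p16 and is another marker of senescence, had a log2 fold change of 0.35, which took the other sign without HFD mCherry replicate 15 or HFD TertCi replicate 31, and the death receptor Fas of 0.75, neither called. Of 17 telomerase and shelterin genes 13 were higher, with a median of 0.23 that includes Tert and became 0.14 without HFD mCherry replicate 20.

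The same genes were read in the high-fat-diet mice with active Tert, whose libraries are compared with HFD TertCi directly. That comparison shares the HFD TertCi libraries with the one above. Pdgfra was at 74.3, 61.3 and 89.6 CPM and 4930404N11Rik at 10.4, 8.702 and 11.6 CPM in HFD Tert, within or near the HFD TertCi range and below every HFD mCherry library. The log2 fold change of HFD TertCi over HFD Tert was -0.28 ± 0.213 (SE) for Pdgfra and -0.17 ± 0.274 for 4930404N11Rik. Alcam was at 46.3, 36.2 and 31.03 CPM in HFD Tert, above every HFD TertCi library (log2 fold change -0.67, unadjusted p = 0.0124, edgeR adjusted p = 1). Over all genes edgeR called 0 of 16713 between the forms of Tert, with 227 (1.36%) at an unadjusted p under 0.05, limma-voom called 0 and DESeq2 called 7. Among those 7, Aqp3, Sptssb and Prss22 were each over 25 CPM in HFD Tert replicates 25 and 26 and at most 1.07 CPM in the other 4 libraries of these groups. The median size of a log2 fold change was 0.18 between the forms of Tert and 0.43 between HFD TertCi and HFD mCherry. List medians of HFD TertCi over HFD Tert were -0.02 for macrophage core, -0.19 for collagens and -0.00374 for oxidative phosphorylation genes. In SD mCherry, Pdgfra was at 137, 103 and 84.5 CPM and 4930404N11Rik at 9.83, 7.71 and 9.44 CPM.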

How the data were processed

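Poly-A selected RNA of the adipose stromal vascular fraction was sequenced, per the labels' protocols. The authors deposited raw read counts for 24422 features per library. Per the submitters' processing notes these came from Subread, SAMtools and featureCounts 1.6.4 on mm10; annotation and strand setting are not given in the sources used here. Low counts were removed by filterByExpr and 1 quasi-likelihood model (edgeR 4.0.16 in R 4.3.3, TMM factors 0.854 to 1.15, robust, no covariate) was fitted to all 12 libraries, so the spread is shared by 4 groups (biological coefficient of variation 0.536, 8 residual degrees of freedom). DESeq2 1.42.0 and limma-voom 3.58.1 were alternatives, and adjusted p-values are Benjamini-Hochberg over all genes tested. The model was tested on simulated data. Named genes were those called, the 12 with the smallest p in each direction and the 6 with the largest DESeq2 change in each direction (mean of at least 5 CPM, no overlap, and for the last no epididymis, skeletal muscle or erythrocyte list genes), the knock-in genes and members of 39 lists. Members and lists were chosen with earlier results of these data known, and lists have no test of their own. Of the 24422 symbols, 23376 matched GENCODE M21 and 23204 RefSeq, both GRCm38. No pair of libraries within HFD TertCi or within HFD mCherry agreed within sampling noise (lowest chi-square over its degrees of freedom 20.5). Other pairs were not compared in this way. Intervals and limits from counts cover counting error only.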

Additional observations from a re-analysis of the deposited data

How the results depend on the processing

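No paired analysis was possible because no replicate number occurs in both groups. The count of 2 called genes became 684 with DESeq2, 742 with the level of epididymis genes as a covariate, 1 with total counts only and 0 in the 6-library fit, where 2624 genes had an unadjusted p under 0.05. It ranged from 0 to 198 when 1 library was left out. It was 2 with limma-voom, RLE size factors, no filter on low counts or no robust estimation. It was 3 over the 9 high-fat-diet libraries, of which Pdgfra alone is shared with the 2 reported. HFD TertCi against HFD Tert went from 0 calls to 7 with DESeq2. The log2 difference in Tert ran from 2.53 (pseudocount 1) to 3.33. Pdgfra was lost with total counts only (adjusted p = 0.121) and 4930404N11Rik over the 9 high-fat-diet libraries (adjusted p = 0.0646). Cdkn1a changed sign, from -0.08, to 0.0338 with total counts only, 0.00752 in the 6-library fit, and 0.12, 0.13 and 0.0437 without HFD mCherry replicate 17, HFD TertCi replicate 30 and HFD TertCi replicate 33, within a range of -0.48 to 0.13 when 1 library was left out; the cause was not tested. No other gene named for its p or its DESeq2 change took the other sign. Of 592 list members tested, 146 did under at least 1 alternative, among them Aif1, Cd34, Cd9, Cdkn2a, Lyve1, Pdgfa, Pdgfb, Stab1 and Tfeb and the epididymal Adam7, Akr1b7, Crisp1 and Gpx5. Of the list medians recomputed, 584 moved by less than the spread between libraries and 40 by more.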

Other observations

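Of 27 adipocyte and lipogenesis genes 14 were lower and 13 higher in HFD TertCi, 3 and 5 of them with no overlap, against 12% of all genes that were lower and 9.45% that were higher with none. The median of -0.0861 became 0.51 without HFD mCherry replicate 15. Adipsin (Cfd) was at 0.387, 0.421 and 0.418 CPM in HFD mCherry and 1.89, 2.77 and 1.905 CPM in HFD TertCi (log2 fold change 2.399 ± 0.491 (SE), edgeR adjusted p = 0.154), and resistin (Retn) at 0, 0.361 and 0.0597 CPM and 0.663, 1.996 and 1.75 CPM. Both adipokines were far below the level of Lpl, the lipoprotein lipase that macrophages and progenitors also make, which was at 705, 2674 and 2408 CPM and 183, 684 and 263 CPM in the same order. Lipe, the hormone-sensitive lipase, was at 21.9, 29.6 and 25.3 CPM and 31.4, 40.6 and 41.4 CPM with no overlap, and Cebpa, a transcription factor of adipocytes and myeloid cells, at 53.9, 80.6 and 84.4 CPM and 31.2, 47.97 and 28.2 CPM, also with no overlap and in the opposite direction. None of these genes was called by edgeR.

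Apoe, an apolipoprotein of macrophages and other cells, differed little between the HFD mCherry libraries, at 2859, 3105 and 2823 CPM, unlike most macrophage genes. It was at 1908, 1634 and 1532 CPM in HFD TertCi, with a log2 fold change of -0.79 ± 0.2196 (SE) (edgeR adjusted p = 0.203, DESeq2 adjusted p = 0.000569). Of 15 genes of cholesterol efflux and synthesis 12 were lower, 4 with no overlap (12% of all genes were so). Their median of -0.40 became -0.67 without HFD TertCi replicate 31.

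The lists not described above held no gene called by edgeR. Of 15 cytokine and inflammasome genes 12 were lower (median -0.69), as were 17 of 24 chemokines and receptors (median -0.62), 11 of 18 interferon-stimulated genes (median -0.14), 5 of 5 neutrophil genes (median -1.43) and 6 of 8 dendritic cell genes (median -0.53). The neutrophil genes were low, with sums of 11.93, 22.43 and 20.31 CPM in HFD mCherry and 6.427, 11.78 and 7.769 CPM in HFD TertCi. In the 6-library fit 3 of them were tested, with a median of -0.307. Of 6 B cell genes 4 were higher (median 0.18), and of 6 Schwann cell genes 4 (median 0.60). The medians were 0.05 for glycolysis and hypoxia, 0.03 for the unfolded protein response, -0.08 for Nrf2 targets, 0.00 for immediate early genes and 0.15 for commonly stable genes. Erythrocyte genes had a median of 0.82 that became -0.0144 without HFD TertCi replicate 31. Skeletal muscle genes had a median of 1.03 that became -0.24 without HFD TertCi replicate 30, and epididymis genes one of -4.49 that became 4.41, with 10 of 10 higher, without HFD mCherry replicate 15. When each of the 6 libraries was left out in turn, the median ran from -0.37 to 0.24 for interferon-stimulated genes, -0.0733 to 0.58 for B cell genes, -0.0494 to 0.10 for glycolysis and hypoxia, -0.0978 to 0.19 for the unfolded protein response and -0.18 to 0.0425 for immediate early genes, so that these 5 took either sign. It ran from -0.92 to -0.42 for cytokines, -0.70 to -0.38 for chemokines, -0.72 to -0.28 for dendritic cell, 0.57 to 1.25 for Schwann cell, -0.38 to -0.00913 for Nrf2 target and 0.0742 to 0.22 for commonly stable genes.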
